A study of Mus musculus with 2 samples.

Results

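The heat shock chaperones followed here were 10 genes chosen by name out of the 32285 genes counted. Hspa1a, Hspa1b, Dnajb1, Hsph1 and Hsp90aa1 formed the heat-inducible group, and Hspa8, Hsp90ab1, Hspd1, Hspe1 and Hspa5 formed the constitutive group. Their transcripts were counted in single alveolar macrophages (AMs), the macrophages resident in the air spaces of the lung, sorted from C57BL/6 mice aged 10 weeks. One library, Control-AM, came from vehicle-control mice, and the other, Tumor-AM, from mice that carried an orthotopic tumor of Lewis lung carcinoma cells (LLC), a mouse lung cancer line, in the lung. The study's methods give female mice, control and experimental mice bred separately, digestion of the lungs with warm collagenase and dispase, and cell sorting. The number of mice behind each library is not given in the sources used here. With 1 library per condition no test between conditions was possible, and tumor, breeding and library cannot be told apart.

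Chaperones bind unfolded or partly folded proteins and help them to fold. HSP70 proteins (Hspa genes) work in cycles of ATP hydrolysis that HSP40 proteins (Dnaj genes) start and nucleotide exchange factors such as Hsph1 end, while HSP90 proteins act later, on signaling proteins and receptors. After heat or other proteotoxic stress the transcription factor HSF1 binds heat shock elements, arrays of the unit GAA in alternating orientation, and induces Hspa1a and Hspa1b in particular, whereas Hspa8 and Hsp90ab1 are made in unstressed cells and Hspa5 is induced by the unfolded protein response of the endoplasmic reticulum.

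Promoter windows were available for 7 of the 10 members, as RefSeq sequences of the build GRCm38.p6 that run from 250 bases before to 50 bases after an annotated start. Those of 4 members are shown because they set the near-identical, most unequal pair (represented by Hspa1a) beside Hsph1, beside the mitochondrial pair and beside Hspa5. Capitals mark matches, on either strand, to GAANNTTC or TTCNNGAA, which are facing pairs of heat shock units, to 3 such units in a row (TTC, GAA and TTC or their complement, 2 bases apart, which contains both pairs), and in Hspa5 to the endoplasmic reticulum stress element, CCAAT and CCACG with 9 bases between them. The windows are chr17:34972107-34972406 on the minus strand for Hspa1a, chr5:149636287-149636586 on the minus strand for Hsph1, chr1:55087898-55088197 on the plus strand for Hspe1 and chr2:34771840-34772139 on the plus strand for Hspa5.
Hspa1a: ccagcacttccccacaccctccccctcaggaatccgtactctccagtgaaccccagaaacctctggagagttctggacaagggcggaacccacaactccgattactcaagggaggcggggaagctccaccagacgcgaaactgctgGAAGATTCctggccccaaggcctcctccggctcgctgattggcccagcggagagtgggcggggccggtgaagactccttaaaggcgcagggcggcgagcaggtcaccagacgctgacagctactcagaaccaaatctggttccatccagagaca
Hsph1: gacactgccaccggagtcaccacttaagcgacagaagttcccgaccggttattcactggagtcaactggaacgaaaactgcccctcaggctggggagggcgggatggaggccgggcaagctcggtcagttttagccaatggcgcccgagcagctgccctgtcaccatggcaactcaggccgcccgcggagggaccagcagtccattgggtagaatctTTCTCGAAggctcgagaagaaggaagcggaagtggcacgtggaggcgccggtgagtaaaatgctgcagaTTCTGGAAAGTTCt
Hspe1: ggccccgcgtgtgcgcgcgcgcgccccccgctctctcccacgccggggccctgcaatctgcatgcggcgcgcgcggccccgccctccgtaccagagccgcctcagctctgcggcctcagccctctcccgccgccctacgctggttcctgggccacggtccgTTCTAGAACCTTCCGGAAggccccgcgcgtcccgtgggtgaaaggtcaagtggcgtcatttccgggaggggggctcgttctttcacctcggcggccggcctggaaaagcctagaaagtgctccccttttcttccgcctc
Hspa5: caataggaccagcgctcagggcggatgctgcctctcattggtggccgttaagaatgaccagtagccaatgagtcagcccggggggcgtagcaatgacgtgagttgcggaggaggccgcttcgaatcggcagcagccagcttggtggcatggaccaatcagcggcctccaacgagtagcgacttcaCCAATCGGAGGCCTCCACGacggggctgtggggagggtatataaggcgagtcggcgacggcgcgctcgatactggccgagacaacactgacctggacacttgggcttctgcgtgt

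The window of Hspa1b, chr17:34959189-34959488 on the minus strand, was identical to that of Hspa1a at 296 of 300 bases. Counted from the 5′ end of the window, with the base of Hspa1a first, the differences were C44T, T47C, T249G and C276T, and both genes held the pair GAAGATTC at bases 147 to 154. The Hspe1 window shared 285 bases with a window of Hspd1 on the opposite strand, so that both windows held the same array of heat shock units. A match to either pair occurred in 5 of the 7 members with a window, Hspa1a, Hspa1b, Hsph1, Hspd1 and Hspe1, and in 15.1% of all 32851 promoter windows. The 3-unit form occurred in windows of Hsph1, Hspd1 and Hspe1 and in 0.603% of all windows. The stress element occurred in the window of Hspa5 and in 0.119% of all windows. None of these motifs was found in the Dnajb1 windows. A match is a match of letters in this window only, and the constitutive genes Hspd1 and Hspe1 held longer arrays than Hspa1a.

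In the GENCODE vM21 annotation of GRCm38, Hspa1a (chr17:34969190-34972156) and Hspa1b (chr17:34956436-34959238) are genes of 1 exon on the minus strand, 9951 bases apart. Of the 91-base windows of the Hspa1a transcript, 91 being the length of the cDNA read, 49.1% occurred unchanged in the Hspa1b transcript. None of the 410 such windows within the last 500 bases of either transcript occurred in the other. Reads from the shared stretch cannot be assigned to 1 copy, so the levels of the pair were also summed. Hspa1a also overlaps Gm20481 on the opposite strand. Dnajb1 (chr8:83608193-83612653), Hspa8 (chr9:40800984-40810087) and Hspa5 (chr2:34771970-34777547) lie on the plus strand. Hsph1 (chr5:149614287-149636376), Hsp90aa1 (chr12:110690605-110702728) and Hsp90ab1 (chr17:45567775-45573271) lie on the minus strand. Hspd1 (chr1:55077835-55088243, minus strand) and Hspe1 (chr1:55088132-55091307, plus strand) have annotated spans that overlap head to head.

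Barcodes with at least 500 detected genes and at most 10% mitochondrial unique molecular identifiers (UMIs) were kept, which left 6185 of 8485 control barcodes with 64850143 UMIs and 7666 of 9175 tumor barcodes with 68801889 UMIs. Median depth was 10370 UMIs in the control library and 8264 in the tumor library, and 17 kept barcode sequences occurred in both. All 10 AM markers were detected in both libraries, with summed levels of 15862 and 13430 CPM (UMIs scaled to a total of 1000000) in the control and tumor libraries. Most of that sum was Chil3 (11657 and 10519 CPM), and 4 of the 10, Marco, Car4, Krt79 and Cidec, were at least 1.5-fold lower in the tumor library, with a median log2 ratio of tumor over control of −0.48 over the list. Markers of monocyte-derived macrophages summed to 17.8 and 111 CPM, of epithelial cells to 127 and 42.2 CPM, of fibroblasts to 0.771 and 32.4 CPM and of cycling cells to 403 and 194 CPM. Their part in the results below was not tested. Levels in CPM are taken over the UMIs of the same barcodes, with exact 95% Poisson intervals, and ratios carry exact conditional binomial intervals. All intervals cover counting error only, not variation between cells or mice. Since 1 tag was counted per transcript molecule, levels of different genes are compared as tags, without scaling to length.

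The heat-inducible HSP70 pair was the part of the chaperone set that differed most between the libraries, and the constitutive chaperones were close to equal. Together, Hspa1a and Hspa1b reached 217 CPM (213 to 220) among control AMs. Among tumor AMs they reached 571 CPM (565 to 577), a difference of 1.40 (1.37 to 1.43) on the log2 scale. All log2 ratios are given as tumor over control. The 5 constitutive members summed to 4420 and 4509 CPM (log2 ratio 0.03, 0.02 to 0.04), a direction that turned with scaling to a total without mitochondrial and ribosomal protein genes (−0.014) and without cluster 5 of the clusters described below (−0.018). Across the 10 members, 3 were at least 1.5-fold higher in the tumor library (Hspa1a, Hspa1b and Hsph1) and 0 were at least 1.5-fold lower. Of the 14784 genes with at least 10 UMIs over both libraries, 11.2% were 1.5-fold higher and 16.2% were 1.5-fold lower in the tumor library, and the median log2 ratio was −0.07 over the 12936 genes that reached 10 UMIs in both. The shares were 5.74% and 2.79% of the 1759 genes at 100 CPM or more in the higher library, and 12.8% and 19.1% of the 17069 genes with any UMI in both libraries.

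**Figure D1:**
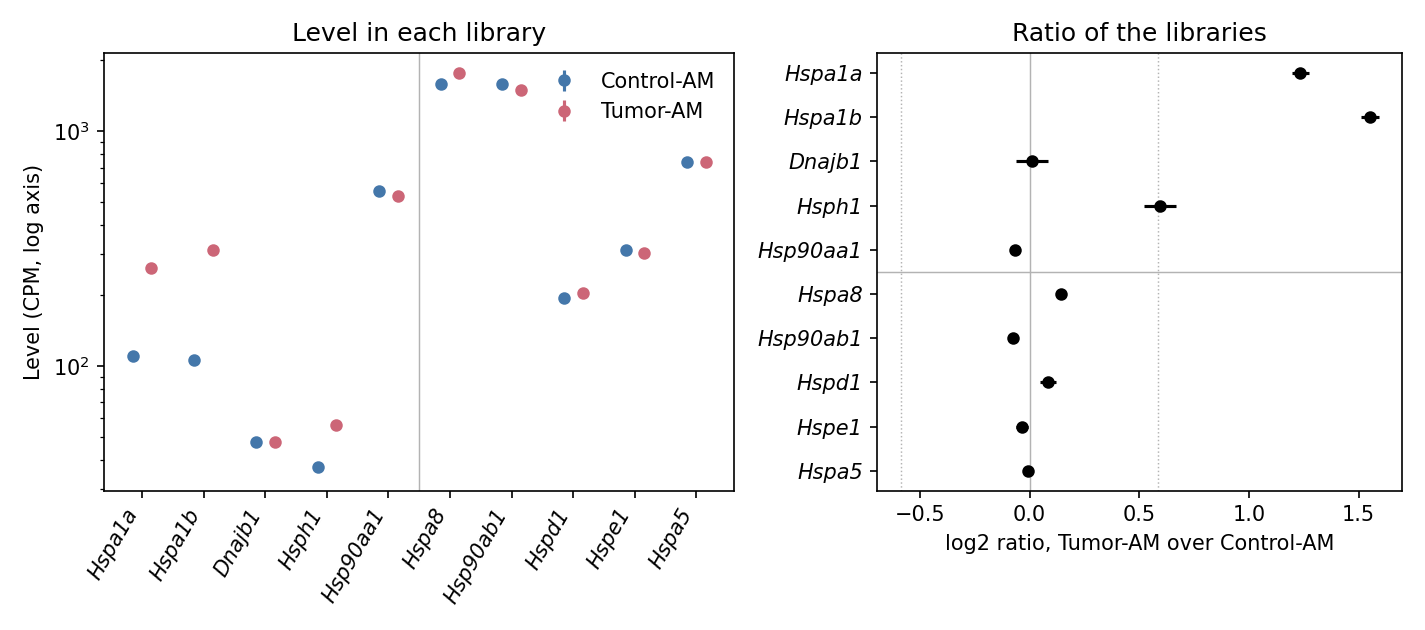
Left, level of each member in the Control-AM and Tumor-AM libraries (CPM, log axis). Right, log2 ratio of tumor over control, with dotted lines at 1.5-fold; bars are exact 95% counting intervals, mostly smaller than the points, and the line divides inducible from constitutive members. Hspa1a, Hspa1b and Hsph1 lie at or beyond the upper dotted line, and the other 7 members lie between −0.07 and 0.14.

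Hspa1a and Hspa1b encode the stress-inducible cytosolic HSP70. Hspa1a was at 111 CPM in the control library and 260 CPM in the tumor library, 2.35-fold higher (log2 ratio 1.23, 1.19 to 1.27). Hspa1b was at 106 and 311 CPM, 2.93-fold higher (log2 ratio 1.55, 1.51 to 1.59). Summed over each library, the copies were therefore at nearly equal levels in the control library and unequal in the tumor library, with 0.958 Hspa1b UMIs per Hspa1a UMI (0.927 to 0.990) against 1.19 (1.17 to 1.22). In the classes of tumor barcodes described below, Hspa1b was the higher copy at 10 or more UMIs of the pair (2756 against 2080 CPM) and at 3 to 9 (696 against 653 CPM). It was the lower copy at 1 to 2 (172 against 200 CPM) and at 0 (9.24 against 11.3 CPM). Relative to Hspa8, its constitutive relative, the inducible pair gave 0.136 UMIs per Hspa8 UMI in the control library and 0.324 in the tumor library.

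The other inducible members differed less than the HSP70 pair. Hsph1, the nucleotide exchange factor of the HSP110 family, was at 37.3 and 56.3 CPM, 1.51-fold higher in the tumor library (log2 ratio 0.59, 0.52 to 0.67), so that its interval spans the 1.5-fold limit. It fell short of that limit when scaled without mitochondrial and ribosomal protein genes (log2 ratio 0.55) and without cluster 5 (0.46), which leaves 2 members past it. Dnajb1, the HSP40 partner of inducible HSP70, was at 47.4 and 47.7 CPM (log2 ratio 0.01, −0.06 to 0.08). Hsp90aa1, the inducible cytosolic HSP90, was at 557 and 532 CPM (log2 ratio −0.06, −0.09 to −0.04). Without Hspa1a and Hspa1b, the inducible group summed to 641 and 636 CPM (log2 ratio −0.01, −0.03 to 0.01), while with them it summed to 858 and 1207 CPM (log2 ratio 0.49, 0.48 to 0.51). The inducible share of all member UMIs was 16.3% in the control library and 21.1% in the tumor library.

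Among the constitutive members, Hspa8, the housekeeping cytosolic HSP70, was the most abundant member in both libraries, at 1594 and 1761 CPM (log2 ratio 0.14, 0.13 to 0.16). Hsp90ab1, the constitutive HSP90, was at 1581 and 1502 CPM (log2 ratio −0.07, −0.09 to −0.06). The 2 HSP90 genes kept almost the same proportion, with 0.352 Hsp90aa1 UMIs per Hsp90ab1 UMI in the control library and 0.354 in the tumor library. Hspd1 and Hspe1, the large and small subunits of the mitochondrial chaperonin that share a promoter, were at 194 and 206 CPM (log2 ratio 0.08, 0.05 to 0.12) and at 311 and 304 CPM (log2 ratio −0.04, −0.06 to −0.01). Hspa5, the HSP70 of the endoplasmic reticulum, was at 741 and 738 CPM (log2 ratio −0.01, −0.02 to 0.01). The differences of all 5 were thus at most 0.14 on the log2 scale, and the directions of Dnajb1, Hsp90aa1, Hspe1 and Hspa5 turned under at least 1 other scaling.

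In descending order, the control levels ran Hspa8, Hsp90ab1, Hspa5, Hsp90aa1, Hspe1, Hspd1, Hspa1a, Hspa1b, Dnajb1 and Hsph1. In that order the counting intervals of Hspa8 and Hsp90ab1 overlapped (1584 to 1603 and 1571 to 1590 CPM), as did those of Hspa1a and Hspa1b (108 to 113 and 104 to 109 CPM). In the tumor library Hspa1b and Hspa1a stood above Hspd1, Hspa1b was at 311 CPM beside 304 CPM of Hspe1, and Hsph1 stood above Dnajb1.

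Genes that work with the members showed mostly small ratios. In a list of 18 other genes of the cytosolic heat shock response, 5 were at least 1.5-fold higher in the tumor library and 0 lower, with a median log2 ratio of 0.12. Those 5 were of low level: Hspb1, a small heat shock protein, at 1.91 and 2.91 CPM, Hspb8 at 0.108 and 0.276 CPM, Dnajb4 at 7.59 and 12.0 CPM, Hspa2 at 6.00 and 10.4 CPM, and Serpinh1, a collagen chaperone, at 0.339 and 1.54 CPM. Among the abundant genes of the list, the ubiquitin gene Ubb had a log2 ratio of −0.53 and the HSP40 gene Dnaja1 one of 0.21. Bag3, an HSP70 co-chaperone, had a log2 ratio of 0.21, and Hsf1 itself had one of 0.05 (−0.06 to 0.16).

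No gene passed 1.5-fold in either direction among 16 HSP70 and HSP90 co-chaperones (median log2 ratio −0.01), 8 mitochondrial chaperones and proteases (−0.06), 22 genes of endoplasmic reticulum folding and the unfolded protein response (0.03) and the 8 subunits of the cytosolic chaperonin TRiC (−0.20). The most abundant co-chaperones in the tumor library were Ptges3, the p23 partner of HSP90 (log2 ratio −0.15), St13 (0.09) and Dnajb6 (0.29). The mitochondrial list was led by Hspa9, the HSP70 of that compartment (0.17), Grpel1, its exchange factor (−0.39), and Clpp (−0.31). In the endoplasmic reticulum list, Hsp90b1, Calr and Canx had log2 ratios of 0.12, 0.13 and 0.25. In TRiC, Cct2, Cct6a and Cct5 had log2 ratios of −0.19, −0.02 and −0.26.

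Immediate early genes, which cells transcribe within minutes of many stimuli, were counted beside the chaperones. Of 13 such genes, 7 were at least 1.5-fold higher in the tumor library and 0 lower, with a median log2 ratio of 0.72. Junb was at 828 and 1616 CPM, Fos at 696 and 1260 CPM, Nr4a1 at 177 and 392 CPM and Ier3 at 114 and 365 CPM, and Ier2, Zfp36 and Btg2 had log2 ratios of 0.72, 0.78 and 0.85. Fosb, at 659 and 929 CPM, stayed under the limit (log2 ratio 0.50). Jun and Egr1, which had log2 ratios of 0.20 and 0.32, were also under it. The part of these genes in the chaperone results was not tested.

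To compare barcodes at 1 depth, each was thinned to 3800 UMIs, which kept 5590 control and 6937 tumor barcodes and left out 595 and 729. A UMI of Hspa1a or Hspa1b was then found in 18.1% of control barcodes (17.1 to 19.2) and 31.1% of tumor barcodes (30.0 to 32.2), a difference of 13.0 percentage points (11.5 to 14.5). Without thinning the shares were 25.3% and 38.1%. For Hspa1a alone the thinned shares were 13.2% and 24.0%, for Hspa1b 12.6% and 22.8%, for Hsph1 12.4% and 16.5% and for Dnajb1 16.0% and 15.8%. Hspa8 and Hsp90ab1 were found in 99.1% to 99.3% of thinned barcodes of both libraries, Hspa5 in 87.9% of both, Hspe1 in 67.0% and 64.9% and Hspd1 in 50.1% and 53.1%. As no cell type is known to lack these genes, a share in cells that should lack them, which would show RNA free in the suspension, could not be given. In barcodes under 500 detected genes, which hold few molecules of a cell, the pair stood at 155 CPM in the control library (1323 barcodes) and 543 CPM in the tumor library (745 barcodes), against 217 and 571 CPM in the kept barcodes. The part of free RNA in the lowest UMI class was not tested.

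The HSP70 pair was unevenly spread over cells. If its UMIs had been spread by chance alone over equal barcodes, 55.1% of control and 89.9% of tumor barcodes would have held at least 1. The 10% of thinned barcodes with the most held 88.2% of these UMIs in the control library and 75.0% in the tumor library. Such a share is also high for a gene of low mean, at 83.3% and 70.3% for Hsph1 and 66.0% and 69.0% for Dnajb1, so the spread was read from variances. The variance of the pair's count was 10.4 times its mean in the control library and 16.0 times in the tumor library. Ranked by variance over mean among the 4957 control and 4991 tumor genes with at least 0.1 UMI per thinned barcode, Hspa1a took places 22 and 21 and Hspa1b places 17 and 13. A high place is not particular to genes found in few barcodes. Actb, found in 100% of thinned barcodes at means of 41.0 and 38.5 UMIs, had ratios of 5.91 and 5.22 (places 21 and 31). Among the members of lower mean, the ratio was 1.04 and 1.21 for Dnajb1, 1.15 and 1.15 for Hspd1 and 1.11 and 1.24 for Hspe1. Hsph1 stood at 1.26 and 2.09 (places 436 and 137). Of the abundant constitutive members, Hspa5 had ratios of 1.87 and 1.86 (places 132 and 176) and Hspa8 1.68 and 2.28 (places 172 and 111). Hsp90ab1 had ratios of 1.42 and 1.63 (places 281 and 241). These members ranked above Hsph1 in the control library, and of them only Hspa8 did so in the tumor library.

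Hsp90aa1 showed nearly equal means and different spreads. Its mean was 2.08 UMIs per thinned barcode in the control library and 2.06 in the tumor library. It was found, however, in 82.4% of control barcodes and 73.0% of tumor barcodes, a difference of −9.37 percentage points (−10.8 to −7.91). Its variance over mean was 2.22 in the control library and 4.38 in the tumor library, its median 2 and 1 UMIs, and its 99th percentile 9 and 16 UMIs. Tumor barcodes thus more often held no Hsp90aa1 UMI and more often held many, at the same mean.

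**Figure D2:**
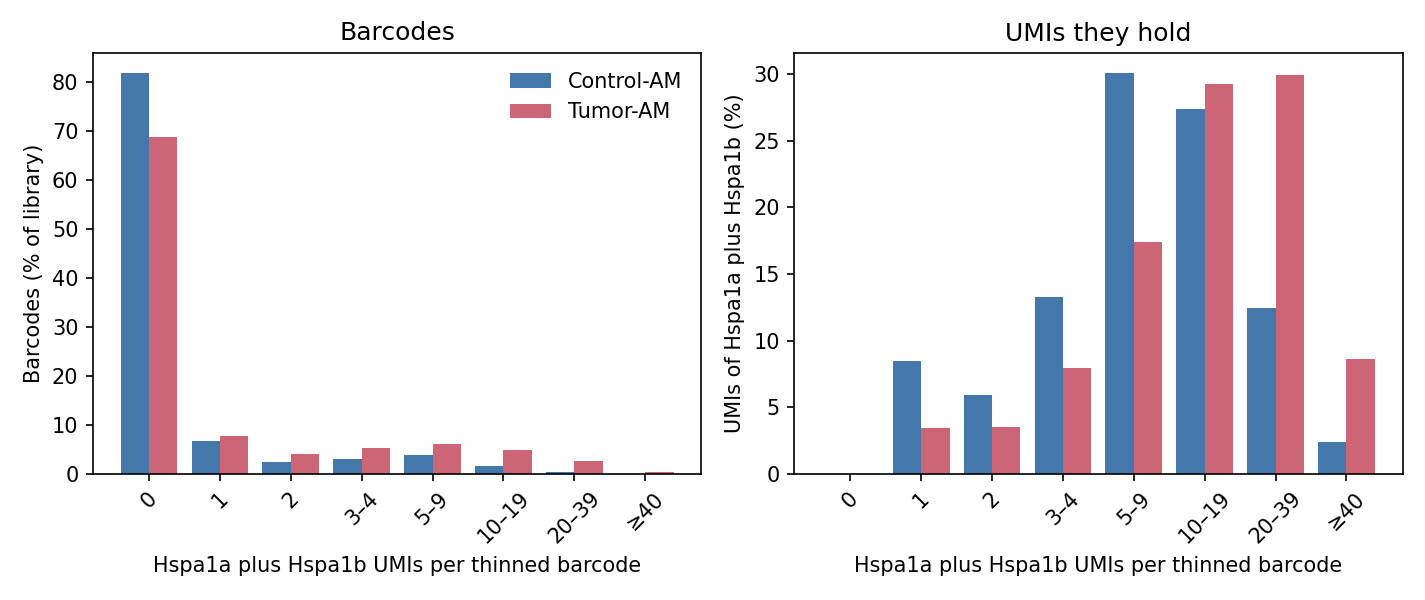
Left, percentage of thinned barcodes of each library by their summed Hspa1a and Hspa1b UMIs. Right, percentage of the library's Hspa1a and Hspa1b UMIs that those barcodes held. Barcodes with 0 made up 81.9% of the control and 68.9% of the tumor library, and barcodes with 10 or more held 42.3% and 67.8% of the UMIs.

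Barcodes were classed by thinned Hspa1a plus Hspa1b UMIs into 0, 1 to 2, 3 to 9 and 10 or more. The classes are ranges of a count and not cell types, and 53 control and 156 tumor barcodes lay within 1 UMI of the limit of 10. Barcodes with 10 or more made up 116 of the control library (2.08%) and 555 of the tumor library (8.0%), and they held 42.3% and 67.8% of the pair's UMIs. Within those barcodes, 98.3% of control and 94.4% of tumor barcodes held UMIs of both copies. At 10 or more UMIs of the pair, nearly all barcodes would hold both by chance, so these shares are descriptions only.

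The other inducible members were higher in barcodes with more Hspa1a and Hspa1b, in both libraries. From the class of 0 to the class of 10 or more, Hsp90aa1 went from 486 to 2052 CPM in the control library (4.23-fold) and from 358 to 1832 CPM in the tumor library (5.11-fold). Hsph1 went from 29.9 to 166 CPM (5.56-fold) and from 38.7 to 171 CPM (4.41-fold). Dnajb1 went from 44.2 to 125 CPM (2.82-fold) and from 39.2 to 112 CPM (2.87-fold). The order of the classes was the same for these 3 genes in both libraries, each class being higher in value than the one before.

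The constitutive members differed less between the classes. Hspa8 was 1.74-fold and 1.79-fold higher in the highest class than in the class of 0 in the control and tumor libraries, and Hsp90ab1 1.46-fold and 1.53-fold. The mitochondrial subunits were 1.37-fold and 1.52-fold higher for Hspd1, and 1.59-fold and 1.51-fold for Hspe1. Hspa5 was 1.12-fold (log2 0.17, 0.08 to 0.26) and 1.06-fold (log2 0.08, 0.03 to 0.13) higher. In the control library it did not climb from class to class, at 722, 721, 853 and 811 CPM. Its partners of the endoplasmic reticulum Hsp90b1 and Calr had log2 differences between −0.09 and 0.07. Hspa9, the mitochondrial HSP70, had log2 differences of 0.06 and −0.01, and Actb 0.02 and 0.00. Of the genes outside the members, Dnaja1 was 3.15-fold and 2.98-fold higher, Bag3 2.27-fold and 2.69-fold, Jun 7.77-fold and 9.47-fold, and the 13 immediate early genes together 2.28-fold and 1.85-fold. Apoe, which led a cluster found mainly in the tumor library, was lower there in the highest class than in the class of 0 (log2 −1.96), at 707, 371, 573 and 182 CPM over the 4 classes, whereas in the control library it was at 24.5 CPM in the class of 0 and 27.2 CPM in the highest.

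**Figure D3:**
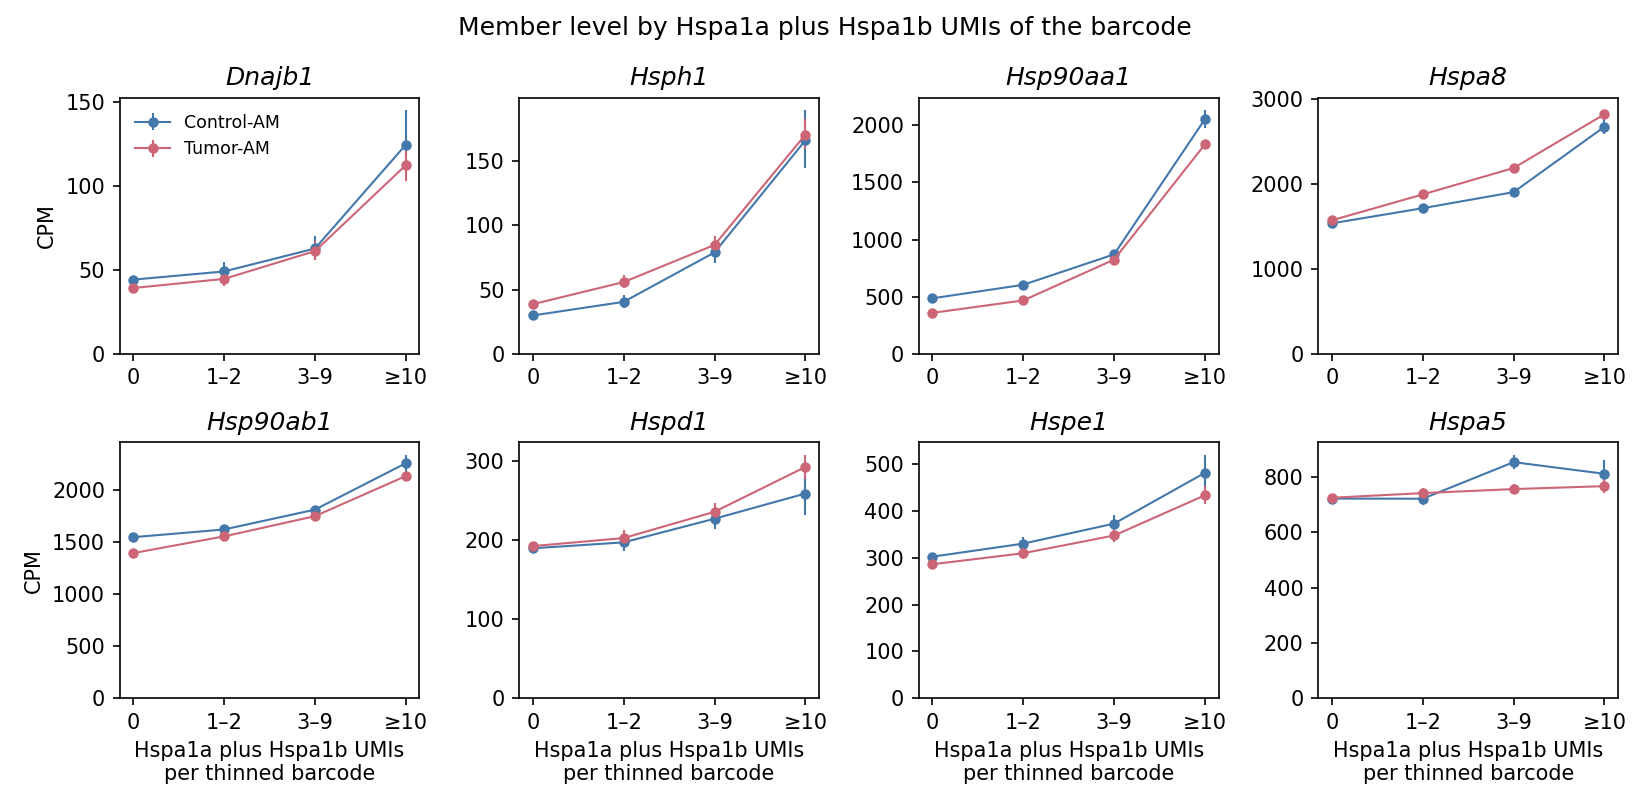
Level (CPM, axes from 0) of the 8 members outside the class rule, by the number of Hspa1a and Hspa1b UMIs in the thinned barcode, for Control-AM and Tumor-AM; bars are exact 95% counting intervals. Hsp90aa1, Hsph1 and Dnajb1 climb by 2.82-fold to 5.56-fold from the lowest to the highest class, Hspa8 by 1.74-fold and 1.79-fold, and Hspa5 by 1.12-fold and 1.06-fold.

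Compared within a class, the libraries gave a different picture for Hsp90aa1 than when summed. In barcodes with no thinned Hspa1a or Hspa1b UMI, Hsp90aa1 was at 486 CPM in the control library and 358 CPM in the tumor library (log2 ratio −0.44, −0.47 to −0.41), and the ratio was −0.37, −0.08 and −0.16 in the 3 higher classes. With the tumor classes weighted by the UMI shares of the control classes, Hsp90aa1 stood at 433 CPM against 557 CPM (log2 ratio −0.36, against −0.07 unweighted over the same barcodes). Hsp90aa1 climbed with the classes, and the higher classes made up more of the tumor library. The weighting therefore lowers its tumor level by the rule itself, and the weighted ratio is a description. The classes did not hold the same mixture of cells in both libraries, as the Apoe levels show, and the part of that in these ratios was not tested. With the tumor clusters described below weighted by control shares in place of the classes, the log2 ratio of Hsp90aa1 was −0.02, and within cluster 5 it was 0.25 (0.20 to 0.30). Dnajb1 had a log2 ratio of −0.17 (−0.26 to −0.08) in the class of 0, and Hsph1 one of 0.37 (0.27 to 0.47) there but 0.04 (−0.18 to 0.26) in the highest class. Hspa5 was at 722 and 725 CPM in the class of 0 (log2 ratio 0.01, −0.02 to 0.03).

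Barcodes were clustered with the members, the chaperone lists and the immediate early genes kept out, so that these did not define the clusters, and 13 clusters of at least 50 barcodes were obtained. Even so, cluster 5 was led by Hspa1b and Hspa1a, with Egr1, Jun, Klf2, Rhob and Hsp90aa1 also among its 10 leading genes by fold. It held 287 control barcodes and 988 tumor barcodes. The pair stood there at 1313 CPM in the control library and 2507 CPM in the tumor library, and the cluster held 30.0% and 54.0% of the pair's UMIs. Cluster 5 was also the highest cluster in both libraries for Hsp90aa1 (1137 and 1353 CPM), Hsph1 (91.2 and 119 CPM), Dnajb1 (80.9 and 80.0 CPM) and Hspa8 (2017 and 2477 CPM). The median depth of the cluster was 8817 UMIs, and its median mitochondrial share was 2.25%.

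The higher level of the pair in the tumor library was not limited to cluster 5. In each of the 10 clusters with at least 50 barcodes of both libraries, the pair was at least 1.5-fold higher in the tumor library, with log2 ratios from 0.64 (0.55 to 0.74) in cluster 6 to 2.61 (2.03 to 3.26) in cluster 4. In cluster 2, led by Fabp1, Gal and Abca1 and holding 1751 control and 252 tumor barcodes, it was at 87.1 and 514 CPM. In cluster 10, led by the antigen presentation genes H2-Aa, Cd74 and H2-Ab1, it was at 242 and 894 CPM. With the tumor clusters weighted by control shares over these 10 clusters, the log2 ratio of the pair was 1.33, against 1.61 unweighted. Without cluster 5, the log2 ratio was 0.80 for Hspa1a, 1.02 for Hspa1b, 0.46 for Hsph1 and −0.34 for Hsp90aa1, and that of the summed inducible members was 0.08 in place of 0.49. Hsph1 was higher in the tumor library in 10 of 10 clusters and past 1.5-fold in 4, whereas Dnajb1 was higher in 6, Hsp90aa1 in 2 and Hspa5 in 6, none of them past 1.5-fold.

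**Figure D4:**
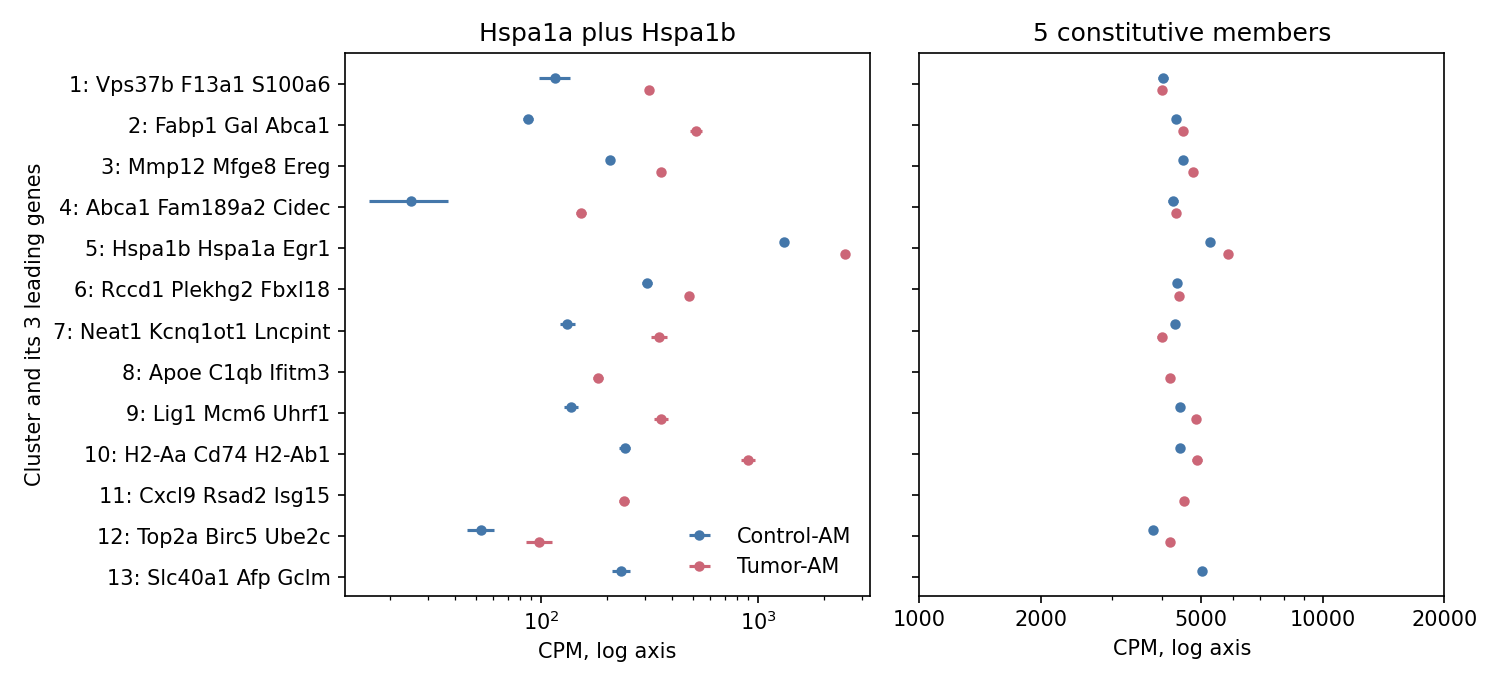
Level (CPM, log axes) of Hspa1a plus Hspa1b, left, and of the 5 constitutive members, right, in each cluster and library with at least 50 barcodes; bars are exact 95% counting intervals. The HSP70 pair spans 25.0 to 1313 CPM over the control clusters and 97.8 to 2507 CPM over the tumor clusters, with the tumor point to the right in all 10 clusters that have both, while the constitutive sum spans 3801 to 5840 CPM.

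Over clusters, the members differed in where they were highest and lowest. The pair was lowest in cluster 4 of the control library, led by Abca1, Fam189a2 and Cidec (25.0 CPM, 113 barcodes), and in cluster 12 of the tumor library (97.8 CPM, 160 barcodes). Cluster 12 was cycling-like, with Top2a, Birc5 and Mki67 among its leading genes. Hspa5 was also lowest in the cycling-like cluster, at 325 and 404 CPM, and highest in cluster 7, at 997 and 917 CPM. Cluster 7, led by the noncoding RNAs Neat1, Kcnq1ot1 and Lncpint, had the lowest median depth of the clusters (4655 UMIs) and the highest median mitochondrial share (4.79%), and the part of these in its Hspa5 level was not tested. Hspd1 was highest in cluster 9, led by DNA replication genes such as Lig1, Mcm6 and Mcm5, at 251 and 274 CPM, against medians over clusters of 203 and 206 CPM. Hspe1 was highest in cluster 13 of the control library (415 CPM) and in cluster 5 of the tumor library (391 CPM), and lowest in cluster 7 of both (232 and 190 CPM). Hspa8 spanned 1.41-fold over the control clusters and 1.76-fold over the tumor clusters, and Hsp90ab1 1.53-fold and 1.54-fold, while the HSP70 pair spanned 52.4-fold and 25.6-fold (8.72-fold and 9.15-fold with the 7 larger clusters of a lower resolution). Clusters 8 and 11, led by Apoe and C1qb and by Cxcl9 and Rsad2, held fewer than 50 control barcodes. In the tumor library they had 182 and 241 CPM of the pair, and cluster 8 had the lowest Hsp90aa1 level, 327 CPM.

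Across thinned barcodes, the genes most like the summed inducible members were Jun, Klf2, Egr1, Rhob and Fos, out of 6426 genes ranked by the lower of both libraries' Pearson correlations. For Jun, a component of AP-1, r was 0.34 over the 5590 control barcodes and 0.54 over the 6937 tumor barcodes, and for Klf2 it was 0.28 and 0.44. For the constitutive sum the closest genes were Jun, Dnaja1, Klf2, Egr1 and Rhob, with weak correlations between 0.11 and 0.32. Barcodes of 1 library share their library and their thinned depth, so these values are descriptions. Among the members, Hspa1a and Hspa1b were correlated most, at 0.66 and 0.71. Hspa1a and Hsp90aa1 stood at 0.25 and 0.40, Hspa1b and Hsp90aa1 at 0.25 and 0.42, and Hspa1a and Hspa8 at 0.16 and 0.31. Over all pairs of inducible members the median correlations were 0.15 and 0.20, and the lowest were 0.03 and 0.07, for Dnajb1 and Hsph1. Pairs of constitutive members had median correlations of 0.02 and 0.07, and Hspd1 and Hspe1, in spite of their common promoter, had 0.02 and 0.07 at about 1 UMI of each per barcode.

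The barcodes outside the filter were examined apart. In barcodes over 10% mitochondrial UMIs, the pair stood at 223 CPM in the control library (2184 barcodes) and 603 CPM in the tumor library (1423 barcodes), while the constitutive members summed to 2365 and 2189 CPM. In barcodes under 500 genes, the constitutive sum was 2020 and 2052 CPM. Many barcodes were outside both limits, so these sets overlap. In the kept barcodes the constitutive sum was higher, at 4420 and 4509 CPM. These levels are scaled to all UMIs, mitochondrial ones included, which lowers the other genes in barcodes over the mitochondrial limit. The part of that in the difference was not tested. The level of the pair, 217 and 571 CPM in the kept barcodes, was not lower over the mitochondrial limit.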

How the data were processed

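Transcripts of single sorted AMs were counted with the 10x Genomics 3′ chemistry in 2 libraries, 1 per condition. The deposited values are raw UMI counts per Ensembl gene and barcode, which the authors made with Cell Ranger against mm10. The submitters' processing notes give bcl2fastq 2.20 and Cell Ranger 4.0.0, and the methods of the study give another Cell Ranger release. Of 32285 gene identifiers, 32158 were matched to a symbol. The study's methods also describe hashtag reads, from which the sample of origin of each barcode was estimated. Hashtag reads were not used here, and each barcode was taken to belong to the condition that labels its library. The members, the gene lists and the rules were chosen with earlier results of these data known.

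Barcodes with at least 500 genes and at most 10% mitochondrial UMIs were kept, and doublets were not removed, since Scrublet's automatic limit called 1 barcode per library. Sums of counts were divided by library totals of 64850143 and 68801889 UMIs. At 95%, Poisson intervals were taken for levels, exact conditional binomial intervals for ratios and Clopper-Pearson intervals for shares. No p-value was computed. The thinning depth was the 10th percentile of the shallower library, rounded down. Clusters came from 2000 variable genes, scaled within each library, 50 components, 15 neighbours and Leiden resolution 1. Named genes are the members, from each list the 3 most abundant and those past 1.5-fold, and the 5 genes most like each sum. One gene that the rule names is not reported here. Others were named after their values were seen: Bag3, Hsf1, Jun and Egr1 among the listed genes, and Actb. Alternatives changed the barcode filters, doublets, scaling, thinning, clustering and gene minimum. The ratio intervals and the thinning were tested on counts simulated with Poisson error only. No differences between cells, classes or clusters were simulated, so that test does not cover the spread over cells. The work used Python 3.11.15, numpy 2.4.6, scipy 1.17.1, pandas 2.3.3, scanpy 1.11.5, igraph 0.11.9 and matplotlib 3.10.9.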

Additional observations from a re-analysis of the deposited data

How the results depend on the processing

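No paired analysis was possible because each condition had 1 library. With the tumor classes of Hspa1a and Hspa1b UMIs weighted by control shares, the summed inducible members had a log2 ratio of −0.15. Their level was then 859 CPM in the control library and 772 CPM in the weighted tumor library. The classes are cut on UMIs that this sum holds, so the weighting takes out most of the pair's difference by construction. That ratio is therefore a description and no test of the sum. Under the alternatives given next, the summed inducible members had a higher level in the tumor library. One alternative left out the 10% of barcodes highest in Hspa1a and Hspa1b, a choice made on the values compared, so that its ratios for this pair and the sum that holds it are descriptions and no sign of stability. The log2 ratio of the inducible sum, 0.49, became 0.45 when scaled without mitochondrial and ribosomal protein genes, 0.56 with the median ratio of all genes subtracted, 0.58 as a mean of each barcode's CPM, 0.19 without the 10% of barcodes highest in Hspa1a and Hspa1b, and 0.076 without cluster 5. That of the constitutive members, 0.03, became −0.014 under that scaling, 0.10 with the median subtracted, 0.0073 without those 10% of barcodes and −0.018 without cluster 5. Leaving out cluster 5, and leaving out cluster 7, were chosen after seeing the data. Members near 0 changed sign: Dnajb1 to −0.032 under that scaling, −0.068 without the highest 10%, −0.079 without cluster 5 and −0.0065 without cluster 7. Hsp90aa1 changed to 0.0030 and Hspe1 to 0.032 with the median subtracted. Hspa5 changed to 0.061 with it, 0.0023 with doublets removed by score (277 control and 415 tumor barcodes), 0.012 at 5% mitochondrial UMIs, 0.0054 without the highest 10% and 0.024 without cluster 7. Hspa1a, Hspa1b, Hsph1 and Hspa8 were higher in the tumor library under the other alternatives. Without cluster 5 the log2 ratios of Hspa1a and Hspa1b, 1.23 and 1.55, became 0.80 and 1.02. Without the highest 10% of barcodes they were 2.36 and 2.47, while the highest 10% of thinned barcodes held 88.2% of the pair's UMIs in the control library and 75.0% in the tumor library. Hsph1 lost its 1.5-fold difference at 0.55 under that scaling and without those barcodes, and at 0.46 without cluster 5. The difference of 13.0 points in barcodes with a UMI of the pair became 8.65 without cluster 5. The share of UMIs in the top 10% of tumor barcodes became 76.1% with doublets removed. The range of the pair over clusters became 8.72-fold (control) and 9.15-fold (tumor) at resolution 0.5, with 7 clusters each, and 22.0-fold and 15.1-fold with genes centred over both libraries. At 100 CPM or more, 5.74% of genes were 1.5-fold higher and 2.79% lower. The cause of these shifts was not tested.

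Depth limits the split of the HSP70 pair into classes, since a barcode with no UMI among 3800 can still express the genes. In the class of 0, unthinned counts left 14.9 CPM in the control and 20.5 CPM in the tumor library.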
